A study of Mus musculus with 6 samples.

Results

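The genes described here encode receptors through which myeloid cells sense formyl peptides, lipid mediators and extracellular nucleotides: Fpr1, Fpr2, Ltb4r1, Ptafr, P2ry2, P2ry14, P2rx4 and P2rx7. Every probe set whose platform gene symbol is one of these names was taken. The annotation used here gave 7 of the 8 genes a probe set, 13 probe sets in all, of 18193 genes with a probe set of their own on the array. It named none for Fpr1, which was not analysed here. Testing required a level above the array-wide median on 3 or more of the 6 arrays, which 8 probe sets in 6 genes reached. P2ry14 was too dim to be tested.

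Expression was measured on Affymetrix arrays in total RNA of marrow cells of leg bones (femur, tibia). The donors were female HdcGFP mice, of C57BL/6 background, which carry a green fluorescent reporter of Hdc, the gene of the histamine-forming enzyme histidine decarboxylase. All cells were sorted for CD11b and Gr1, surface antigens of neutrophils and monocytes. The 3 GFP_min samples were the reporter-negative or low fraction (HdcGFP-/lo) and the 3 GFP_plus samples the reporter-positive or high fraction (HdcGFP+/hi). No age, treatment or number of mice per sample is given in the sources used here, and every group carries the reporter. Whether each sample is a different mouse is not stated either, and p-values then reflect only the spread among these samples, possibly a technical one. One description, that of GFP_min replicate b, reads Gr1-negative where its sorted-cell label reads Gr1-positive, and the calls of receptor genes and the counts of related genes that change without it are given both ways.

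Formyl peptide receptors are G protein-coupled receptors that guide phagocytes toward N-formylated peptides shed by bacteria and damaged mitochondria. Leukotriene B4 and platelet-activating factor (PAF) are lipids made by activated leukocytes that act on receptors of the same kind. Adenine and uridine nucleotides leaking from stressed cells act on P2Y receptors, which couple to G proteins, and on P2X receptors, which are ion channels opened by ATP; P2X7 is known for triggering inflammasome assembly and release of interleukin-1 beta in macrophages.

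The P2X channels were the receptors that differed most: P2rx7 and P2rx4 were lower in GFP_plus, by 4.35 and 1.77 on the log2 scale. Fpr2, Ptafr and P2ry2 were higher by 0.17 to 0.48, and Ltb4r1 did not pass the test. Of the 6 genes tested, 3 were thus higher and 2 lower by limma at an adjusted p under 0.05. Among all 10810 genes tested, 21.0% were higher and 27.6% lower by the same rule, so the members' counts stand in a comparison where 48.7% of genes passed. By size, 8.75% of all genes were called lower by at least 1 log2, as P2rx7 and P2rx4 were, and 1.52% higher by as much, as 0 of the members were. The groups did not overlap in 5 of the 6 member genes, 3 with GFP_plus higher and 2 with it lower, against 59.3% of all genes (27.2% higher, 32.1% lower). A fall at least as large as that of P2rx7 was called in 0.638% of all genes, one at least as large as that of P2rx4 in 3.60%, and a rise at least as large as that of Ptafr in 14.4%. P2rx7 passed the level filter through the GFP_min arrays, so a difference between the groups was built into its being tested. Levels of different probe sets are not comparable on these arrays, and the receptors were not ranked against each other by level. The percentiles given below for Fpr2 only place its values within the range of the array. Summed marker levels are set side by side between the groups, not between lists.

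**Figure D1:**
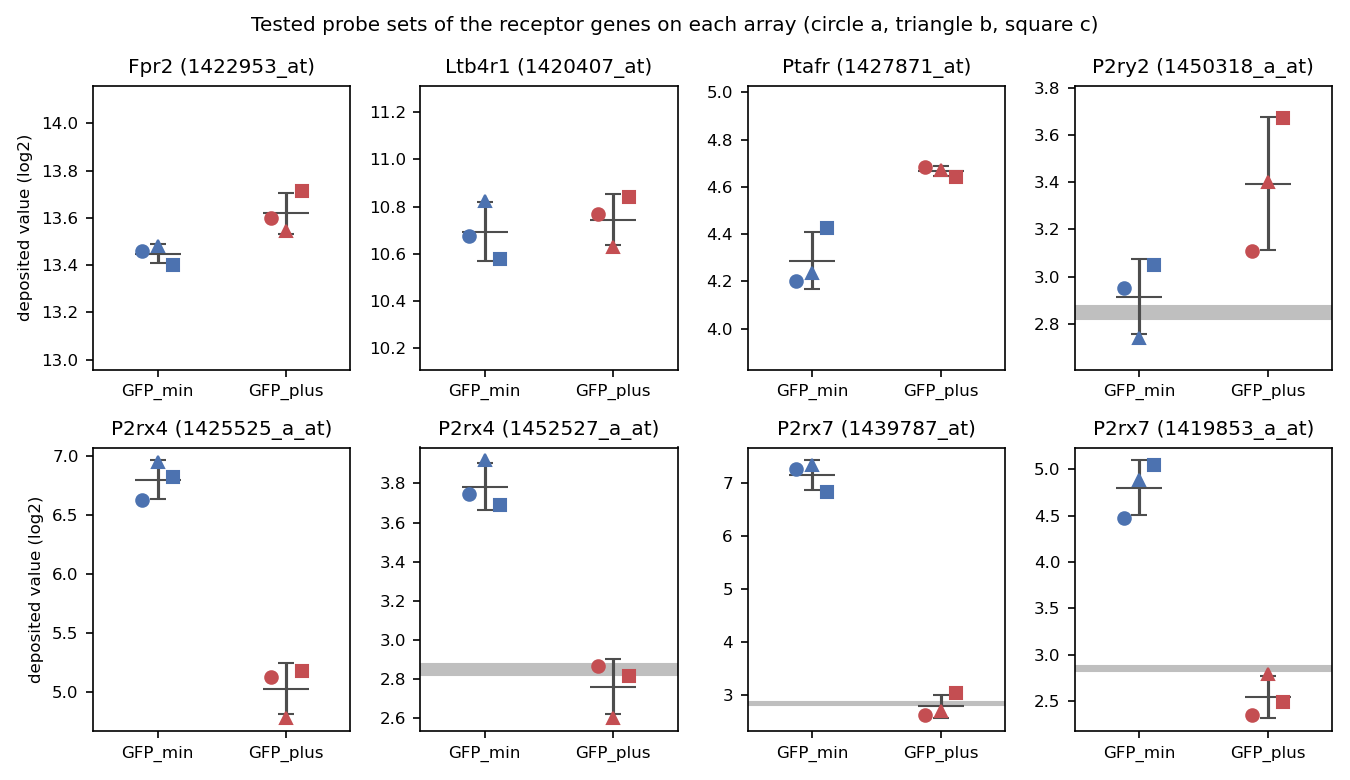
Deposited log2 value (y axis, with its own range in each panel) of the 8 tested probe sets on each array by group (x axis). Circles, triangles and squares are replicates a, b and c, horizontal lines and bars the mean ± SD (n = 3), and the grey band the range of the 6 array medians (2.82 to 2.88). The P2rx7 and P2rx4 probe sets separate the groups by 1.02 to 4.35 log2, Ltb4r1 overlaps, and Fpr2, Ptafr and P2ry2 separate by under 0.5.

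Markers of cell types that the sort could hold moved between the same samples. All 10 monocyte markers tested, among them Ccr2, Cx3cr1, Irf8 and Csf1r, were lower in GFP_plus, with a median of −5.26. Their summed level was 15.29 to 15.38 (log2) in GFP_min and 11.88 to 11.92 in GFP_plus, and none lay below the array medians in either group. Dendritic cell markers were lower for 5 of 6 (summed level 9.34 to 9.89 and 6.35 to 6.58), with Cd209a and Siglech below the array medians in GFP_plus. Neutrophil markers were higher for 6 of 11 (17.29 to 17.33 and 17.36 to 17.46) and lower for 0, and their median difference of 0.15 is smaller than the 0.41 that centring on the bacterial poly-A control RNAs (poly-A centring) subtracts from every difference. The call was also higher for neutrophil precursor markers, 5 of 5 (12.92 to 12.99 and 14.11 to 14.29). Basophil and mast cell markers were higher for 5 of 5 (5.11 to 5.12 and 7.84 to 8.30), with Cpa3 and Fcer1a below the array medians in GFP_min. Macrophage markers were higher for 4 of 6 and lower for 1, while their summed level was lower in GFP_plus (9.57 to 9.60 and 8.92 to 9.13), led by Adgre1, which fell by 1.43. Eosinophil markers were higher for 2 of 2 (7.21 to 7.42 and 8.66 to 8.98), Prg2 and Siglecf, while Epx, Ccr3, Il5ra and Prg3 were too dim to be tested. T and NK cell markers were higher for 1 of 2 (8.09 to 8.62 and 9.33 to 9.71). Of these Nkg7 was called and Cd3d was not, and Cd3e and Ncr1 were too dim. Platelet markers were higher for 2 of 3 (4.68 to 4.94 and 5.05 to 5.32), with Itga2b, 1 of the 2, below the array medians in GFP_min. Cpa3, Fcer1a and Itga2b passed the level filter only through the GFP_plus arrays, and Cd209a and Siglech only through the GFP_min arrays. A difference between the groups was therefore built into the testing of these genes. B cell markers were lower for 1 of 4 (6.24 to 6.43 and 5.80 to 6.15). The 3 erythroid markers with a probe set were too dim to be tested. So were Gp9 and Ppbp of the platelet list and Mertk, C1qc, Zbtb46, Xcr1, Cd200r3 and Pax5 of the other lists. The part of these markers' cells in the receptor differences was not tested, and in sorted bulk RNA fewer cells of a type and less RNA per cell cannot be told apart. Hdc, the basis of the sort, rose by 0.82.

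The arrays resembled each other closely, at correlations of 0.996 to 0.997 within groups and 0.978 to 0.982 between groups. The gap between the 3' and 5' control probe sets, a sign of RNA quality, was 0.26 to 0.37 in GFP_min and 0.59 to 0.66 in GFP_plus for Gapdh, and 0.79 to 0.83 against 0.82 to 0.90 for beta-actin. Whether this gap bears on the receptor values was not tested.

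Fpr2 encodes a receptor for formylated peptides and for endogenous ligands such as annexin A1. Its probe set read 13.46, 13.48 and 13.40 in GFP_min replicates a, b and c and 13.60, 13.54 and 13.71 in GFP_plus. All 3 GFP_plus arrays lay above all 3 GFP_min arrays, and the group means stood at the 99.8th and 99.9th percentiles of the array's probe sets, near its upper end. The difference was 0.17 (SE 0.05, limma adjusted p = 0.0139), a 1.13-fold difference. It was not called without GFP_min replicate c (0.15, adjusted p = 0.0614) or without the variance trend (0.145). It turned to −0.23 (adjusted p = 0.0374) with poly-A centring.

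Ltb4r1 encodes BLT1, the high-affinity leukotriene B4 receptor that draws neutrophils to sites of inflammation. Its values were 10.68, 10.82 and 10.58 in GFP_min and 10.77, 10.63 and 10.84 in GFP_plus. The groups overlapped, with the lowest GFP_plus array under 2 of the GFP_min arrays, and the difference of 0.05 (SE 0.08, adjusted p = 0.636) was under the SD of either group. The call depended on the scaling: the difference was 0.25 (adjusted p = 0.0249) with median centring, 0.58 (0.000122) with centring on ribosomal protein genes and −0.35 (0.0104) with poly-A centring.

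Ptafr encodes the PAF receptor. The brighter of its probe sets read 4.20, 4.23 and 4.43 in GFP_min and 4.68, 4.67 and 4.64 in GFP_plus, without overlap. The rise of 0.38 (SE 0.13, adjusted p = 0.0379) was 1.30-fold, and it was not called without GFP_min a (0.34, adjusted p = 0.118) or b (0.35, 0.0916), or without GFP_plus a (0.37, 0.0926), b (0.38, 0.0799) or c (0.39, 0.0641). It was also lost without the level filter (0.0509), and the difference was −0.026 with poly-A centring. The other Ptafr probe set lay below the array medians on all 6 arrays (means 2.53 and 2.57) and was not tested. Its difference without the level filter was 0.041 (limma adjusted p = 0.817).

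The difference between the changes of Ptafr and Ltb4r1 was also taken within each array, where a shift common to all probe sets of an array cancels. A normalization that depends on intensity does not cancel. With quantile normalization Ptafr differed by 0.57 and Ltb4r1 by 0.035, and the within-array comparison was not computed on those values. Ptafr minus Ltb4r1 was −6.41 ± 0.23 in GFP_min and −6.08 ± 0.12 in GFP_plus (mean ± SD, n = 3), a change of 0.33 that did not pass (exact permutation test, two-sided, p = 0.2, also after adjustment over the 3 pairs computed). With 3 arrays against 3 this test cannot go below 0.1.

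P2ry2 encodes a receptor for ATP and UTP that in neutrophils amplifies chemotactic signals. Its probe set was dim, at 2.95, 2.74 and 3.05 in GFP_min and 3.11, 3.40 and 3.67 in GFP_plus, where 2 of the 3 GFP_min arrays and all 3 GFP_plus arrays exceeded their array medians. The groups did not overlap, although GFP_plus replicate a lay close to GFP_min replicate c. The difference was 0.48 (SE 0.15, adjusted p = 0.0274). It was not called without GFP_min replicate a (0.50, adjusted p = 0.0549) or b (0.39, 0.0916), without GFP_plus replicate b (0.48, 0.0584) or c (0.34, 0.0819), with array weights (0.31, 0.0887) or with poly-A centring (0.07, 0.713).

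P2ry14 encodes the receptor for UDP-glucose and other UDP-sugars. It read 2.31, 2.24 and 2.60 in GFP_min and 1.97, 2.20 and 2.08 in GFP_plus, below the median of its array on each of the 6, so neither group has more than an upper bound. Without the level filter its difference was −0.30 (SE 0.11, limma adjusted p = 0.0829). The within-array comparison of P2ry14 with P2ry2 is therefore not given, although it counts among the 3 pairs over which p-values were adjusted.

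P2rx7 encodes the ATP-gated channel that needs high ATP to open and that leads to potassium loss. Its brightest probe set, 1439787_at, read 7.27, 7.34 and 6.82 in GFP_min and 2.63, 2.69 and 3.04 in GFP_plus. All GFP_min arrays lay well above their medians, while in GFP_plus only replicate c exceeded its median, and the groups were far apart. The fall of 4.35 (SE 0.18, limma adjusted p = 8.13e-08) corresponds to a measured 20.4-fold difference, the GFP_plus side of which rests on 1 array above the median. A dimmer P2rx7 probe set, 1419853_a_at, read 4.47, 4.89 and 5.04 in GFP_min and 2.34, 2.79 and 2.49 in GFP_plus. It lay below the array medians on all GFP_plus arrays and so was at least 3.84-fold lower against those medians (measured difference −2.26, SE 0.17, adjusted p = 5.41e-06). Like the brightest one, this probe set passed the level filter through the GFP_min arrays, so a difference between the groups was built into its being tested. The last P2rx7 probe set, 1422218_at, was below the array medians on all 6 arrays, at means of 1.92 and 1.82, and was not tested.

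P2rx4 encodes an ATP-gated calcium-permeable channel that resides largely in lysosomes of macrophages. Its brightest probe set, 1425525_a_at, read 6.62, 6.95 and 6.83 in GFP_min and 5.12, 4.77 and 5.18 in GFP_plus, above the array median on all 6 arrays. The groups lay far apart, and the fall of 1.77 (SE 0.16, adjusted p = 1.44e-05) was 3.42-fold. The next probe set, 1452527_a_at, fell from 3.78 ± 0.12 to 2.76 ± 0.14 (−1.02, SE 0.12, adjusted p = 9.02e-05), with 1 GFP_plus array above its median. This probe set passed the level filter through the GFP_min arrays, so a difference between the groups was built into its being tested. The remaining P2rx4 probe sets, with GFP_min means of 2.97 and 2.53, were too dim to be tested, and their differences without the level filter were −0.27 (adjusted p = 0.132) and −0.17 (0.265).

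The falls of both P2X genes were called under every alternative in which the gene was tested. Over 15 alternatives P2rx7 lay between −4.76 and −3.31, and over 16 P2rx4 lay between −2.18 and −1.24. Within arrays, P2rx7 minus P2rx4 went from 0.34 ± 0.33 in GFP_min to −2.24 ± 0.22 in GFP_plus (n = 3), a change of −2.58 (exact permutation test, two-sided, p = 0.1, the smallest possible; 0.15 adjusted over 3 pairs). All 3 GFP_plus arrays lay below all 3 GFP_min arrays in this quantity. P2rx7 was near or below the array medians in GFP_plus, so its level there is uncertain.

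**Figure D2:**
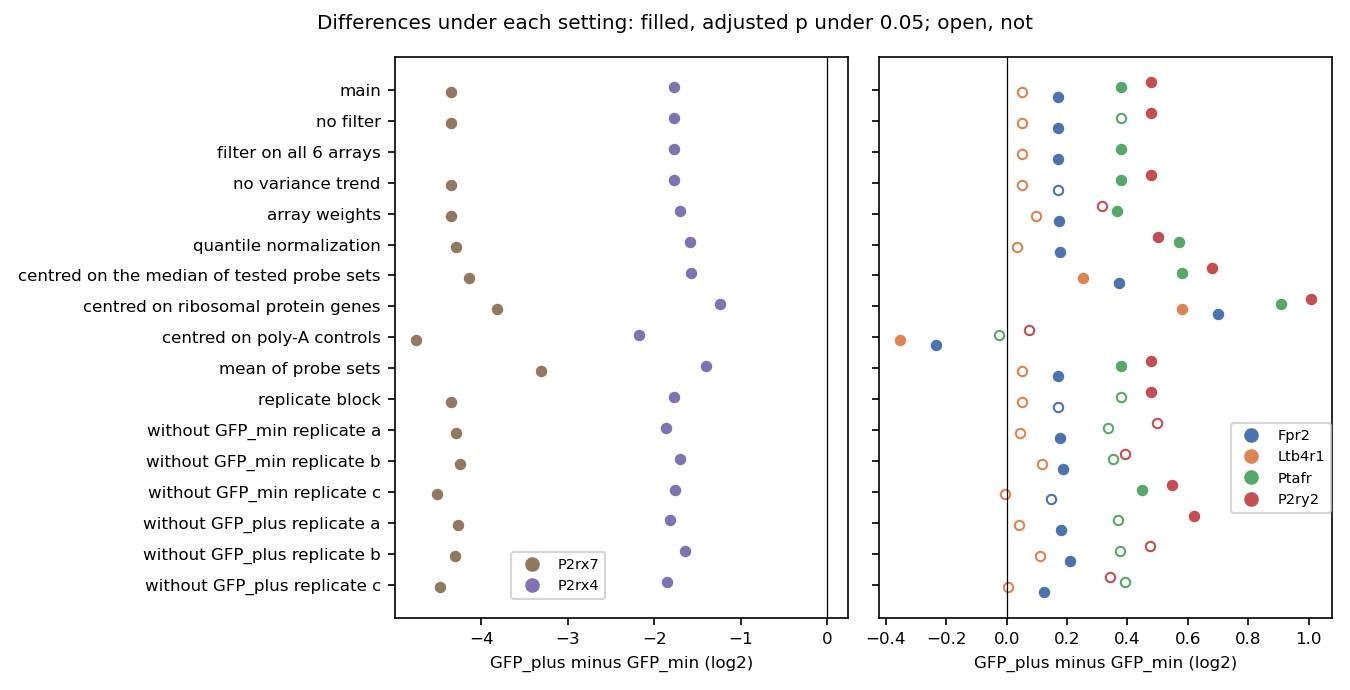
Difference GFP_plus minus GFP_min in log2 (x axis) of the 6 tested receptor genes under each setting (y axis); filled points have an adjusted p under 0.05 and open points do not. P2rx7 (−4.76 to −3.31) and P2rx4 (−2.18 to −1.24) stay below 0 throughout, while Fpr2, Ltb4r1 and Ptafr change sign with poly-A centring and lie at 0.58 or higher with ribosomal centring.

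P2rx7 and P2rx4 lie next to each other on chromosome 5, and since both were lower, the sequence upstream of each is shown. The runs are RefSeq's GRCm38.p6 sequence of the plus strand before the first annotated base of each gene, chr5:122643677-122643926 for P2rx7 and chr5:122707294-122707517 for P2rx4, and capitals mark matches to the motifs named below.
P2rx7: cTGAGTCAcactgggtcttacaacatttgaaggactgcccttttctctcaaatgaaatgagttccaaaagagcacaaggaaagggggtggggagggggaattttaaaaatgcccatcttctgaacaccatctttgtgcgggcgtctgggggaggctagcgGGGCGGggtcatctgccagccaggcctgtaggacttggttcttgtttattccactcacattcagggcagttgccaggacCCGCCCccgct
P2rx4: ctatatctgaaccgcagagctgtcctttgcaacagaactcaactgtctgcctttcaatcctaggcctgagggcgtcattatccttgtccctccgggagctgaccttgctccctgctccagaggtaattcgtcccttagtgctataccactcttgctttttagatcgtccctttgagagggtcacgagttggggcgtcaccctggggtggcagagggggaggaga
Both strands of the 250 bases upstream of each table start were searched for GAGGAAG (the core bound by PU.1), TTGCNNAA (C/EBP), the ETS-IRF composite element, TGANTCA (AP-1) and GGGCGG (a GC box); these motifs were chosen after the expression values and the sequences had been seen. In P2rx7, an AP-1 match, TGAGTCA, stood at −249 to −243 from the start site and GC boxes at −90 to −85 and −11 to −6. The P2rx4 window held no match to any of these letters. Of 32851 promoter windows in the table, 6.75% held the AP-1 letters, 32.7% a GC box, 10.6% the PU.1 core, 9.56% the C/EBP letters and 2.30% the composite. The matches are descriptions of the letters and not of binding.

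The protein-coding genes on either side of the pair were read in the same way, a choice made after the P2X values were seen. Of the 10 nearest, 5 on each side, 9 had a tested probe set. Of these, 6 were lower and 1 higher in GFP_plus, against 27.6% and 21.0% of all genes. Ift81, 1 of the 6, fell by 0.92 and lay below the array medians on all GFP_plus arrays. It passed the level filter through the GFP_min arrays, so a difference between the groups was built into its being tested. Gpn3 and Ift81, both among the 6, read highest in GFP_min replicate b (5.57 and 3.98), and neighbour counts without that sample are not given. Camkk2, a calmodulin-dependent kinase kinase that adjoins P2rx4, fell by 1.00 (adjusted p = 4.32e-06). Kdm2b, a histone demethylase, fell by 1.16 and Atp2a2, a calcium pump of the endoplasmic reticulum, by 0.74. Orai1, the pore of the store-operated calcium channel, rose by 0.76 (adjusted p = 0.000178). Anapc7 (−0.11) and Rnf34 (0.16) did not pass. Ribosomal centring adds 0.53 to each difference, which turns that of Anapc5 from −0.39 to 0.14 and that of Anapc7 to 0.42. In the values as deposited, the 9 tested neighbours all differed by less than P2rx7 and P2rx4. With ribosomal centring Orai1 stood at 1.29 and P2rx4 at −1.24.

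**Figure D3:**
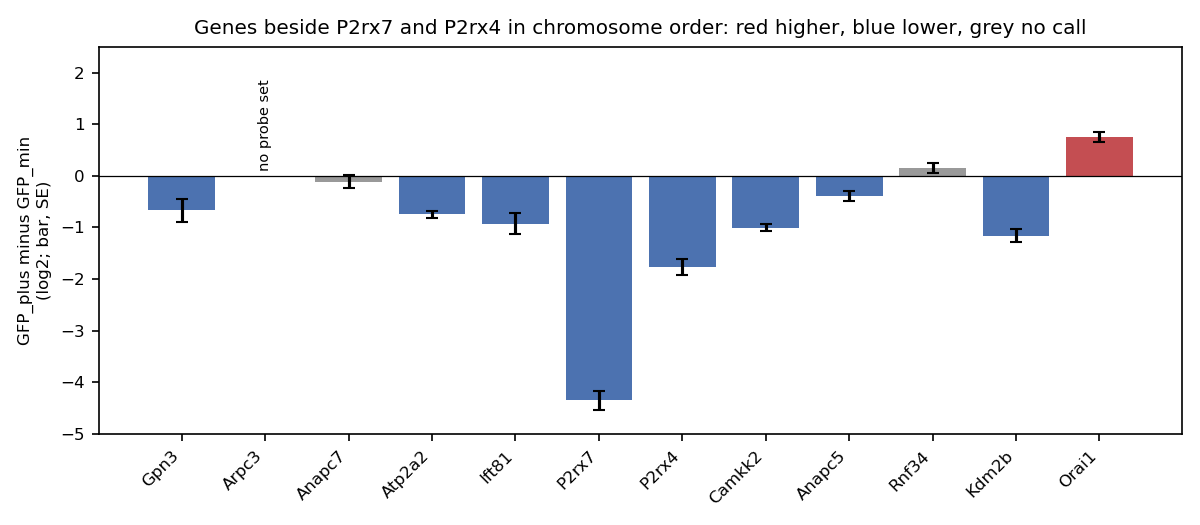
Difference GFP_plus minus GFP_min in log2 (y axis; error bars, SE) of P2rx7, P2rx4 and the 5 nearest protein-coding genes on each side in chromosome order (x axis). P2rx7 (−4.35) and P2rx4 (−1.77) have the longest bars, the neighbours lie between −1.16 and 0.76, and Arpc3 is blank, with no probe set of its own in the annotation used here. Ift81 lay below the array medians on all GFP_plus arrays.

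The related genes were taken as lists by role, in which 33 of 76 genes tested were higher and 14 lower. Among all genes the shares were 21.0% and 27.6%, against which the count of each list below is to be read. Among other P2Y receptors, 1 of 4 tested was higher and 1 lower. P2ry6, the UDP receptor, fell from 6.80 ± 0.23 to 3.14 ± 0.21 (−3.66, limma adjusted p = 1.54e-07), a 12.6-fold difference. P2ry13, an ADP receptor, rose from 7.57 ± 0.32 to 8.93 ± 0.06 (1.36, adjusted p = 5.61e-05). Both P2Y calls were kept under all 3 centrings, with 2 further genes of the list lower after poly-A centring and 1 further gene higher after ribosomal centring. Of the other P2X channels, P2rx1 (0.27, adjusted p = 0.130) and P2rx6 (0.22, 0.233) were tested and did not pass; both were called higher with median or ribosomal centring, and P2rx2, P2rx3 and P2rx5 were too dim. Of the adenosine receptor genes, 1 had a probe set, Adora3, and it was too dim.

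Among other lipid mediator receptors, 2 of 10 tested were higher and 5 lower. Their median difference was −0.40, against 0.0023 over all genes. Cysltr1, a receptor for cysteinyl leukotrienes, fell from 7.25 ± 0.11 to 2.70 ± 0.23 (−4.55, adjusted p = 1.84e-08), with 1 GFP_plus array above its median. Like P2rx7, Cysltr1 passed the level filter through the GFP_min arrays, so a difference was built into its being tested. The same holds for S1pr5, another of the 5 lower genes. Lpar6, a lysophosphatidic acid receptor, fell by 2.25 and the prostaglandin E2 receptor gene Ptger4 by 1.05. A second prostaglandin E2 receptor gene, Ptger2, rose by 0.57 and the sphingosine phosphate receptor gene S1pr4 by 0.38. With poly-A centring 0 were higher and 6 lower, S1pr4 turning to −0.021, and with ribosomal centring 5 were higher and 4 lower. Without GFP_min replicate b, 3 were higher and 4 lower, and the lower count was also 4 without GFP_min replicate a or c. Of the complement and chemerin receptors only C5ar1, the C5a receptor, was bright enough to be tested, and it rose from 9.49 ± 0.24 to 10.63 ± 0.27 (1.14, adjusted p = 0.000161). The formyl peptide receptor relatives Fpr-rs3 and Fpr-rs4 were too dim. Of 5 genes for endogenous formyl peptide receptor ligands, 1 was higher and 0 lower. It was the granule protease gene Ctsg (1.31), which is also one of the precursor markers above. The count of higher ligand genes was 4 with median or ribosomal centring, 1 with 3 lower under poly-A centring, 2 without GFP_min replicate b and 3 without GFP_plus replicate b.

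Enzymes of leukotriene B4 and PAF metabolism were higher for 7 of 11 and lower for 1, with a median of 0.25. Pla2g7 and Pafah2, hydrolases that break down PAF, rose by 0.59 and 0.63, and Lpcat2, which makes PAF, by 0.48. Pafah1b3, a catalytic subunit of another PAF hydrolase, fell by 0.61. With poly-A centring these counts were 0 higher and 3 lower, and with ribosomal centring 10 and 0. Genes of nucleotide release and breakdown were higher for 5 of 7 and lower for 1. Entpd1, the ectonucleotidase CD39 that degrades ATP and ADP, rose from 7.65 ± 0.10 to 8.78 ± 0.01 (1.13, adjusted p = 8.85e-06), Enpp4 by 0.80 and the adenosine deaminase gene Ada by 0.50. Panx1, a membrane channel that releases ATP and is linked to P2X7, fell by 1.14. The higher count was 2 with poly-A centring and 6 with ribosomal centring, and the lower count was 1 with both. With each sample left out in turn, GFP_min replicate b among them, 4 were higher.

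**Figure D4:**
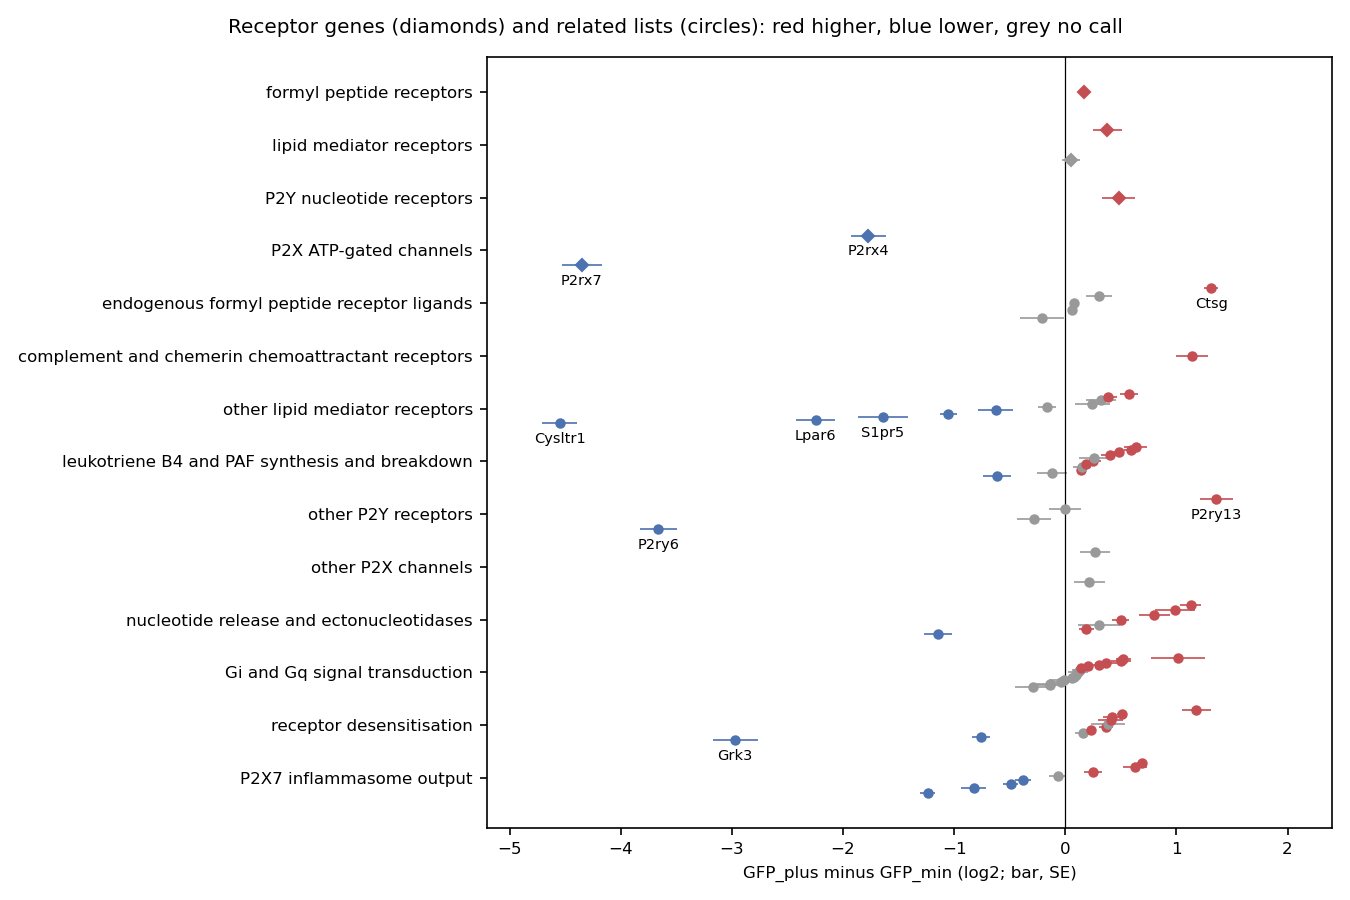
Difference GFP_plus minus GFP_min in log2 (x axis; bars, SE) for each tested gene of the receptor groups (diamonds) and related lists (circles), by list (y axis). P2rx7, Cysltr1, P2ry6, Grk3, Lpar6, P2rx4 and S1pr5 (below the array medians on all GFP_plus arrays) have the largest falls, and P2ry13 (1.36) and Ctsg (1.31) are the farthest right.

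Downstream of the G protein-coupled members, genes of Gi and Gq signalling were higher for 7 of 18 and lower for 0, with a median of 0.11. Pik3cg and Pik3r5, the catalytic and adaptor subunits of phosphoinositide 3-kinase gamma, rose by 0.52 and 0.50 and Gnai2, a Gi alpha subunit, by 0.21. With poly-A centring 1 of these genes was higher and 11 lower, Gnai2 turning to −0.20, and with ribosomal centring 17 were higher and 0 lower, so the direction of this list follows the scaling. Genes that terminate receptor signals were higher for 6 of 10 and lower for 2. Grk3, a receptor kinase, fell from 8.63 ± 0.17 to 5.66 ± 0.45 (−2.97, adjusted p = 2.47e-06) and Grk5 by 0.76. The beta-arrestin gene Arrb2 rose by 0.51, and the regulators of G protein signalling Rgs3 and Rgs14 by 1.18 and 0.37; poly-A centring left 1 higher and 2 lower and turned Rgs14 to −0.037.

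The genes of the inflammasome that P2X7 triggers were split, with 3 of 8 higher and 4 lower. Il1b, which encodes interleukin-1 beta, rose from 11.68 ± 0.04 to 12.37 ± 0.03 (0.69, adjusted p = 1.87e-06), the sensor gene Nlrp3 by 0.62 and the pore-forming Gsdmd by 0.25. The adaptor gene Pycard fell from 11.98 ± 0.05 to 10.74 ± 0.14 (−1.24, adjusted p = 7.41e-07), Il18 by 0.83 and the protease gene Casp1 by 0.49. With poly-A centring 1 was higher and 5 lower, Gsdmd turning to −0.16. With ribosomal centring 4 were higher and 2 lower, Casp1 turning to 0.038.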

How the data were processed

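Total RNA of the 6 sorted samples was extracted with a column kit and labelled with biotin for Affymetrix 3' arrays, per the labels' protocols. The authors deposited log2 expression values of 45101 probe sets, made with GCRMA, per the submitters' processing notes, which combines the probes of a set after background correction and normalization. No GCRMA version or setting is given in the sources. The log2 scale was read from the range of the values. They were used as deposited.

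Names came from GEO's annotation of the platform (34945 with 1 symbol, 932 with several, 9160 with none given), with symbols updated for 34741 through RefSeq's GRCm38.p6 table. Leaving out 64 control probe sets, 22956 were tested in R 4.3.3 by limma 3.58.1's lmFit and eBayes, its variance prior following the intensity, as GFP_plus minus GFP_min, with Benjamini-Hochberg adjustment over all of them and a threshold of 0.05. A gene stands for its brightest tested probe set. For a group under its array medians throughout, the fold is a bound set against them. The members, lists and tests were chosen with earlier results of these data known. Named from each related list were up to 3 genes in each direction with the smallest adjusted p, or, where none passed, the 2 largest differences; of these, 1 of 2 tested probe sets shared the call in Pik3cg and Pycard and 2 of 3 in Rgs3, and none was opposite. The within-array comparisons used exact permutation tests.

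Alternatives changed the filter, variance model, array weights, normalization, probe sets of a gene, the replicate letter as a block and each sample left out. The fit was tested on simulated data. Plots used Python 3.11.15 and matplotlib 3.10.9.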

Additional observations from a re-analysis of the deposited data

How the results depend on the processing

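The precision of every value is limited by 3 arrays a group, and a log2 value near the array medians (2.82 to 2.88) has little room to fall. Of the 6 tested receptor genes, P2rx7 and P2rx4 kept their direction and call in all alternatives that tested them, though the filter on all 6 arrays left 1 lower gene, P2rx4, to be tested and called. The count of higher receptor genes was 3; it was 1 to 2 with each sample left out (1 without GFP_min a or b or GFP_plus b or c), while poly-A centring gave 0 higher and 4 lower. The same letters did not deviate together (correlations of −0.18, −0.30 and −0.22 for a, b and c), so they were not taken to pair the samples; with the replicate block 1 receptor gene, P2ry2, was higher, while Fpr2 (adjusted p = 0.0579) and Ptafr (0.0860) did not pass.

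Differences that changed sign did so with poly-A centring in Fpr2 (−0.23), Ltb4r1 (−0.35), Ptafr (−0.026), S1pr4 (−0.021), P2rx1 (−0.14), P2rx6 (−0.19), Gnai2 (−0.20), Rgs14 (−0.037) and Gsdmd (−0.16), with ribosomal centring in Casp1 (0.038), and without GFP_min replicate c in Ltb4r1 (−0.0061; −0.0061 to 0.12 over the samples left out). By construction these centrings add 0.53 (ribosomal protein genes), 0.20 (median of tested probe sets) and −0.41 (poly-A controls) to every difference. Among all genes, 2275 were higher and 2988 lower; the counts were 4472 higher with median centring, 7380 and 1218 with ribosomal centring and 420 and 6028 with poly-A centring, and the share of calls that were higher went from 43.2% to 68.1%, 85.8% and 6.51%. The related lists had 33 genes higher and 14 lower, against 52 higher with median centring, 59 with ribosomal centring, and 8 higher and 34 lower with poly-A centring. Other settings also moved counts of the lists by over 1.5 times: the higher Gi and Gq genes numbered 12 with the mean of probe sets, the higher leukotriene B4 and PAF genes 4 without the variance trend, and the lower lipid receptors 3 with the filter on all 6 arrays. The higher ligand genes numbered 3 with quantile normalization or array weights and 2 without the variance trend, with the filter on all 6 arrays or with the mean of probe sets, and 1 of the other P2X genes was higher with no filter, quantile normalization or the mean of probe sets. The within-array change of P2rx7 against P2rx4 was −1.91 with the mean of probe sets and −2.75 to −2.43 with each sample left out, and that of Ptafr against Ltb4r1 0.23 to 0.46. These ranges do not cover quantile normalization, which can change a within-array difference.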

Other observations

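Other genes with profiles like those of the receptors were looked for by Pearson correlation over the 6 arrays, as a description. Closest to P2rx7 were Usp12, a deubiquitinase (r = 0.999, difference −0.94), Nmt1, an N-myristoyltransferase (0.999, −0.27), and Lztfl1 (0.999, −2.59), and 335 of the 10810 genes had r above 0.99. P2ry2 had the largest rise among the tested receptor genes, except that Ptafr had the larger difference with quantile normalization, with array weights and without GFP_plus replicate c. Closest to it were Aars2 (0.995, difference 0.23), Lrfn1 (0.992, 0.57) and Gm26504 (0.992, 0.25), with 4 genes above 0.99. The 6 points fall into the 2 groups of the sort and share their arrays and scaling.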
